A study of Mus musculus with 15 samples.

Results

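The array used for this study carries 1806 probes whose names mark them as long intergenic noncoding RNA (lincRNA), out of 60823 distinct probes that are not controls. They were chosen by name alone. Of these, 1092 names begin with humanlinc, 639 with mouselinc and 75 with MM9LINC, and each probe has a single spot. None carries an accession or a gene symbol in the files, so they are known here by the probe name, and whether a humanlinc probe holds a human or a mouse sequence is not stated. The name of each probe ends in a number, a plus or a minus sign and a version mark, and probes that share a prefix and a number but differ in the sign are called a pair below.

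RNA came from the ipsilateral striatum of male mice, with 5 arrays per group and 3 groups. Sham mice and mice with intracerebral hemorrhage (ICH), a bleed within the brain, received distilled water. The third group had ICH and was given BYHWD, which is Buyang Huanwu decoction, a Chinese herbal medicine, by gavage at 6.19 g/kg once a day until tissue was taken at day 14. Strain, age and the way in which the bleeding was induced are not given in the labels, nor is it stated that each array stands for a separate mouse, so the p-values measure the spread between these arrays. The study looked for expression signatures of this decoction after the bleed.

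LincRNAs are transcribed from stretches between protein-coding genes, and many are capped, spliced and polyadenylated like messenger RNAs without encoding a protein. Catalogues of them in mouse and human were first drawn from chromatin marks of active promoters and transcribed gene bodies. They are known for low levels and for strong restriction to a tissue or cell type, with the brain among the tissues that express many of them, and single members act by scaffolding protein complexes or by affecting the transcription of neighbouring genes.

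Of the 3 slides that carried the 15 arrays, slide 1 had all sham arrays plus ICH 2 and ICH 3, slide 2 had the remaining ICH arrays (1, 4 and 5), and slide 3 had only BYHWD arrays. Treatment and slide cannot be told apart wherever BYHWD is compared. The share of spots well above background, which is the scanner software's own flag and is called detection below, was 81.4% to 86.2% per array, and the 75th percentile of the signal ran from 261 to 540 units. The 3' minus 5' difference of the Gapdh control probes, a sign of RNA integrity, averaged 0.23 ± 0.15 (SD, n = 5) on the log2 scale for sham, 0.61 ± 0.19 for ICH and 0.49 ± 0.10 for BYHWD. Among the marker genes listed for the cells of this tissue, only Apoe, Mbp and Mzb1 are tied to a tested probe in the files, so the striatal label could not be checked against its neuronal markers. Apoe, a lipid carrier of astrocytes and microglia, was higher by 0.94 in ICH and 0.93 in BYHWD than in sham on the log2 scale. Mzb1, a chaperone of plasma cells, was higher by 0.69 and 0.64, and Mbp, the basic protein of myelin, by 0.19 and 0.21. The part of RNA integrity or of these cell types in the lincRNA probes' differences was not tested. Precision is limited by the number of arrays.

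A smaller share of the lincRNA-named probes was detected than of the other large probe classes. Of the 1806, 756 (41.9%) were detected on all 15 arrays and 579 (32.1%) on none, whereas among the 27812 probes named ASMM10LNC1A 75.7% were detected on all arrays and 9.11% on none, and among the 22359 named ASMM10AP1B 81.3% and 6.90%. Of the 15 probes named MM9NEGATIVE, 2 were detected on all 15 arrays and 10 on none. The 3 prefixes were alike in this but for the smallest. Detection on all arrays held for 447 humanlinc probes (40.9%), 267 mouselinc probes (41.8%) and 42 MM9LINC probes (56.0%). Per array, 49.6% to 57.8% of the lincRNA-named probes were detected. By group, the number detected was 925 to 1043 in sham, 896 to 982 in ICH and 972 to 1038 in BYHWD, and the 3 ranges overlapped.

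Tests were run on probes detected on at least 5 arrays. This left 1030 lincRNA-named probes, of which 615 were humanlinc, 362 mouselinc and 53 MM9LINC. At the edge of this filter, 24 probes were detected on exactly 5 arrays and 30 on exactly 4, and 2 probes past the filter were left out for an outlying spot. The other 774 were not tested for want of detection. All 1030 tested probes are also in the authors' deposited table of log2 values, which holds 1272 of the 1806, and the 534 it leaves out were all among those not tested.

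Most of the numbered loci are probed with both signs. Of the 954 loci, 852 have a pair, made up of 535 humanlinc, 307 mouselinc and 10 MM9LINC pairs. In 290 pairs (34.0%) both probes were detected on at least 5 arrays, in 183 only the plus probe, in 204 only the minus probe and in 175 neither. At the extremes, 201 pairs had 1 probe detected on all 15 arrays and the other on none, while 160 pairs had both probes detected on all 15. Signal from only 1 of the marks was thus common. Both probes were tested in 288 pairs.

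The first comparison asked which lincRNA-named probes differed in the striatum at day 14 after hemorrhage. Against sham, 31 of the 1030 tested probes were higher in ICH (3.01%, against 4.07% of all tested probes) and 18 were lower (1.75%, against 0.954%), which makes 49 in all (4.76%, against 5.03%). Changes of at least 2-fold numbered 9 up and 10 down (1.22% and 0.279% of all tested probes). Groups without overlap, whatever the test, numbered 18 with ICH higher and 19 with ICH lower (3.95% and 1.1% of all tested probes). By prefix, 20 humanlinc, 8 mouselinc and 3 MM9LINC probes were higher, and 11, 5 and 2 were lower. The median log2 difference over the tested lincRNA-named probes was 0.11, and 0.05 over all tested probes. Levels below are log2 signals minus each array's 75th percentile, so they can be negative, and a log2 difference of 1 is a 2-fold change. The 49 differences past the test (limma, Benjamini-Hochberg adjusted p under 0.05 over all tested probes) had a median size of 0.80 for the rises, with 1.27 as the largest, and of 1.01 for the falls, some of which ended below background in ICH and have no exact size.

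Among humanlinc probes, the largest rise without overlap between the groups was that of humanlincRNA2246+_P1V4. Its level was 2.54, 2.36, 1.96, 2.34 and 2.57 on sham 1 to 5, 2.58 and 2.96 on ICH 2 and ICH 3, and 4.01, 4.25 and 4.31 on ICH 1, ICH 4 and ICH 5. No ICH array fell within the sham range, but the ICH arrays of slide 1 lay just above sham and those of slide 2 far above. The mean rose from 2.35 ± 0.24 to 3.62 ± 0.80 (SD, n = 5 each), a log2 difference of 1.27 ± 0.28 SE (limma adjusted p = 0.0250). Its minus partner, humanlincRNA2246-_P1V4, went the other way without passing (-0.48 ± 0.32 SE, limma adjusted p = 0.338). The next largest rise, that of humanlincRNA2330+_P1V4, was of the same form, with sham at 4.83 to 5.26, the slide 1 ICH arrays at 5.44 and 5.52 and the slide 2 ICH arrays at 6.82 to 7.11 (log2 difference 1.24 ± 0.28 SE, limma adjusted p = 0.0243). Its minus partner was detected on no array.

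The largest humanlinc falls without overlap were those of humanlincRNA1086-_P1V4 and humanlincRNA2039-_P1V4. The first stood at 2.22 to 2.50 in sham, at 1.93 and 2.08 on the slide 1 ICH arrays and at 0.27 to 0.90 on those of slide 2 (-1.16 ± 0.29 SE, limma adjusted p = 0.0361). For humanlincRNA2039-_P1V4 the sham arrays read -0.32, -0.66, -0.67, -0.53 and -0.61, ICH 2 and ICH 3 read -0.99 and -0.92, and ICH 1, ICH 4 and ICH 5 read -1.97, -1.97 and -2.34. It fell by 1.08 on the log2 scale (SE 0.25, limma adjusted p = 0.0291). Its plus partner, humanlincRNA2039+_P1V4, was lower too, from -0.53 ± 0.08 in sham to -0.92 ± 0.14 in ICH (SD, n = 5 each; -0.40 ± 0.11 SE, limma adjusted p = 0.0471). humanlincRNA1166-_P1V4, named here after its values were seen because its groups overlapped, was also lower (limma adjusted p = 0.0439). Its level was -4.41 to -2.95 on the 5 sham arrays and -4.35 and -4.25 on the slide 1 ICH arrays, and it was not well above background on the slide 2 ICH arrays, so that its fall has no exact size.

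In the mouselinc set, 8 probes were higher and 5 lower, and the rises named for lack of overlap were smaller than the falls so named. With overlap allowed, 2 rises and 3 falls past the test were at least 2-fold by measured difference. These were 0.552% and 0.829% of the mouselinc probes, against 1.22% and 0.279% of all tested probes. mouselincRNA0763-_P1V4 rose from -1.81 ± 0.12 in sham to -1.30 ± 0.23 in ICH (0.51 ± 0.13 SE, limma adjusted p = 0.0344) and mouselincRNA0133-_P1V4 from 1.84 ± 0.14 to 2.33 ± 0.25 (0.49 ± 0.13 SE, limma adjusted p = 0.0467; SD, n = 5 each). On the falling side, mouselincRNA0963-_P1V4 read 0.23, -0.17, -0.37, -0.09 and -0.19 on sham 1 to 5, -0.42 and -0.50 on ICH 2 and ICH 3, and -1.89, -1.91 and -2.07 on ICH 1, ICH 4 and ICH 5 (-1.24 ± 0.29 SE, limma adjusted p = 0.0307). The groups touch but do not overlap, and only the ICH arrays of slide 2 lie far below. mouselincRNA0543+_P1V4 fell from 1.69 ± 0.19 to 0.49 ± 0.75 (SD, n = 5 each; -1.21 ± 0.28 SE, limma adjusted p = 0.0281), while its minus partner, detected on all 15 arrays, did not pass (-0.47 ± 0.25 SE, adjusted p = 0.223).

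Of the MM9LINC probes, MM9LINCRNAEXON11382+_P1V4 was the only rise past the test without overlap. It read -3.94, -3.41, -3.78, -4.10 and -3.98 on sham 1 to 5 and -3.22, -3.40, -3.39, -2.60 and -2.98 on ICH 1 to 5 (0.73 ± 0.16 SE, limma adjusted p = 0.0232). The groups all but touch, with sham 2 at -3.41 just below ICH 2 at -3.40. MM9LINCRNAEXON11109-_P1V4 was lower in ICH (limma adjusted p = 0.0291). It was detected on all 5 sham arrays at -4.44 to -3.37 and on the slide 1 ICH arrays at -4.59 and -4.58, but not on those of slide 2, so its fall has no exact size, and with normexp background correction the log2 difference was 0.06 (limma adjusted p = 0.621). MM9LINCRNAEXON11712-_P1V4 was also lower, from -1.82 ± 0.41 to -2.67 ± 0.33 (SD, n = 5 each; -0.84 ± 0.19 SE, limma adjusted p = 0.0251), and its plus partner differed by -0.46 ± 0.13 SE without passing (limma adjusted p = 0.0562).

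The ICH differences rested on slide 2. RNA integrity and brightness moved with the same split, since the Gapdh 3' minus 5' difference was 0.33 and 0.52 on the slide 1 ICH arrays and 0.61 to 0.79 on those of slide 2, and the 75th percentile of the signal was 421 to 453 units against 261 to 303. Their part in the difference was not tested. Set against the same sham arrays, the 3 ICH arrays of slide 2 gave 299 lincRNA-named probes higher and 147 lower (29.0% and 14.3%, against 21.4% and 15.1% of all tested probes), and all 49 probes above were among them. The 2 ICH arrays of slide 1 gave 1 higher and none lower in the same limma fit (43 had an unadjusted p under 0.05), against 0.333% higher and 0.00581% lower among all tested probes. None of the 49 passed within slide 1. All 49 had the same sign there, but the ICH arrays of both slides were in the fit that picked the 49. The shared sign is therefore no separate support. For the 11 probes of the preceding paragraphs that were past the test without overlap, the log2 difference within slide 1 lay between -0.64 and 0.45, and the adjusted p between 0.564 and 0.979. The exception within slide 1, mouselincRNA0165-_P1V4, was found after the values were seen. Its level was -2.23, -1.82, -1.88, -1.98 and -1.58 on sham 1 to 5, -0.55 and 0.19 on ICH 2 and ICH 3, and -1.66, -1.41 and -1.29 on ICH 1, ICH 4 and ICH 5. On slide 1 it was higher by 1.72 ± 0.25 SE (limma adjusted p = 0.0239), and with all ICH arrays by 0.95 ± 0.29 SE (adjusted p = 0.0644).

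The count of 49 changed when single arrays were left out. It was 13 without sham 1, sham 2 or sham 5, 20 without sham 3, 16 without sham 4, 3 without ICH 1, 249 without ICH 2, 228 without ICH 3, 5 without ICH 4, 2 without ICH 5, 32 without BYHWD 2 and 31 without BYHWD 3. The background moved too. Of all tested probes, 1.54% to 2.25% were then higher and 0.0832% to 0.372% lower without a sham array, and 0.834% to 1.46% and 0.0174% to 0.0406% without ICH 1, ICH 4 or ICH 5. Without ICH 2 they were 11.8% and 8.42%, without ICH 3 10.5% and 8.65%, without BYHWD 2 3.18% and 0.443%, and without BYHWD 3 3.17% and 0.461%. With the 10 sham and ICH arrays alone in the fit the count was 2, against 1.17% higher and 0.0252% lower among all tested probes, and in the authors' deposited values it was 3, against 0.414% and 0.0645%.

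The treatment comparison asked which probes differed in ICH mice given the decoction. Here lincRNA-named probes moved largely in a single direction. Of the 1030, 90 were higher in BYHWD than in ICH (8.74%, against 3.62% of all tested probes) and 2 were lower (0.194%, against 2.51%), or 92 in all (8.93%, against 6.13%). At least 2-fold rises numbered 18 (0.432% of all tested probes rose and 0.122% fell as far). Groups without overlap numbered 105 with BYHWD higher and 3 with BYHWD lower (4.44% and 3.67% of all tested probes). The 90 comprised 59 humanlinc, 26 mouselinc and 5 MM9LINC probes, and both falls were mouselinc. The median log2 difference was 0.25 over the lincRNA-named probes and 0.00 over all tested probes, and 77.9% of the former had a positive difference against 50.2% of the latter. Of the 90 rises, 66 were without overlap between the groups and 62 were of probes detected on all 15 arrays. The counts of 90 and 18 include probes that met the minimum of 5 arrays only through BYHWD, and how many was not counted. In a limma fit of only the probes detected on all 15 arrays, 69 of 756 were higher (9.13%, against 4.16% of all probes in that fit). In the same fit 3 were lower (0.397%, against 3.09%).

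The rises named by their measured difference were both of dim probes. mouselincRNA1630+_P1V4 read -5.54, -5.49, -6.08, -6.47 and -6.94 on ICH 2, ICH 3, ICH 4, ICH 5 and ICH 1 and was detected on none of them. On BYHWD 1 to 5 it read -4.38, -4.84, -4.26, -4.43 and -4.21 and was detected on 4 of 5. It was at least 1.77-fold higher in BYHWD, where the bound sets the BYHWD mean against the higher of the probe's own signal and the lowest detected signal on each ICH array. humanlincRNA0566+_P1V4 was likewise detected on 4 of 5 BYHWD arrays and no ICH array, and was at least 2.0-fold higher. Both were detected on 1 of 5 sham arrays, so they met the minimum of 5 arrays only through BYHWD, where they are high, and their p-values are no support for the rise. Against the slide 1 ICH arrays alone neither passed (limma adjusted p = 0.0833 and 0.13). The bounds hold for the processed signal alone, since with normexp background correction the log2 differences were 0.14 and 0.22 (limma adjusted p = 0.531 and 0.35).

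Both falls were of probes detected on every array. mouselincRNA1181+_P1V4 read -2.18, -2.03, -1.98, -1.94 and -1.83 on ICH 2, ICH 3, ICH 4, ICH 5 and ICH 1, against -2.48, -2.43, -2.80, -2.45 and -2.59 on BYHWD 1 to 5. Its ICH arrays of both slides lay close together, and the log2 difference was -0.56 ± 0.13 SE (limma adjusted p = 0.0237). mouselincRNA1437+_P1V4 fell from 2.96 ± 0.10 to 2.47 ± 0.18 (SD, n = 5 each; -0.49 ± 0.13 SE, limma adjusted p = 0.0458). Neither differed between ICH and sham past the test (adjusted p = 0.699 and 0.444). Set against the slide 1 and slide 2 ICH arrays apart, the differences were -0.44 and -0.63 for mouselincRNA1181+_P1V4 and -0.39 and -0.55 for mouselincRNA1437+_P1V4. Neither passed against slide 1 alone (limma adjusted p = 0.104 and 0.19), and both passed against slide 2 (0.00391 and 0.0143). With normexp background correction neither passed (limma adjusted p = 0.178 and 0.0684).

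Detection itself switched for 2 probes, which were seen on all 5 BYHWD arrays and no ICH array. humanlincRNA1432-_P1V4 read -7.17 to -5.29 in ICH and -5.10 to -4.30 in BYHWD (at least 1.43-fold higher). humanlincRNA0743-_P1V4 read -6.78 to -5.32 in ICH and -4.78 to -4.25 in BYHWD (at least 1.69-fold higher). They were named after this count was seen, and are 0.111% of the 1806 probes, against 0.0231% with such a gain among all probes. They were detected on 1 and 2 of 5 sham arrays, and since they were picked by this switch no test of it is given.

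Against the slide 1 ICH arrays 176 lincRNA-named probes were higher and 7 lower (17.1% and 0.680%, against 5.84% and 1.33% of all tested probes), and against those of slide 2, 198 were higher and 54 lower (19.2% and 5.24%, against 15.1% and 12.6%). Of the 92 probes past the test with all ICH arrays, 39 also passed against slide 1 and 79 against slide 2, and all 92 kept their sign against both. The same arrays were in the fit that picked the 92, so these counts are no separate support. With the slide as a random block, 0 of the 1030 passed limma's test, and 94 had an unadjusted p under 0.05 (335 without the block). Of all tested probes, 0.00194% were higher in that fit and 0% lower. The count of 92 fell to 60 without sham 5, 47 without ICH 1, 50 without ICH 5, 35 without BYHWD 1, 39 without BYHWD 2, 32 without BYHWD 3 and 38 without BYHWD 5. In these 7 fits, 1.16% to 2.26% of all tested probes were higher and 0.579% to 1.43% lower.

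The last comparison set the treated ICH mice against the mice without a bleed, and it shares its arrays with the other comparisons. Here 290 of the 1030 lincRNA-named probes were higher (28.2%, against 12.7% of all tested probes) and 21 were lower (2.04%, against 4.62%), or 311 in all (30.2%, against 17.3%). Groups without overlap numbered 267 with BYHWD higher and 24 with BYHWD lower (12.3% and 4.53% of all tested probes). By prefix, 177 humanlinc (28.8%), 102 mouselinc (28.2%) and 11 MM9LINC probes (20.8%) were higher. At least 2-fold rises numbered 87, and at least 2-fold falls 5 (2.49% and 0.194% of all tested probes). Probes with the plus mark and those with the minus mark moved alike, with 148 and 142 of 515 each higher, and median log2 differences of 0.34 and 0.30. Of the 290 rises, 72.8% were of probes detected on all 15 arrays, and 219 were without overlap between the groups.

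The first of the probes named by their measured rise was humanlincRNA0922+_P1V4. It was detected on no sham array, where it read -7.06, -6.82, -7.21, -7.50 and -6.54, and on all 5 BYHWD arrays, where it read -4.01, -3.84, -3.92, -4.57 and -3.82. It was at least 2.69-fold higher in BYHWD (limma adjusted p = 0.00305). With normexp background correction, to which the bound does not apply, the log2 difference was 0.83 (limma adjusted p = 0.00279). Since it was detected on 3 of 5 ICH arrays, it met the minimum of 5 arrays only through BYHWD, where it is high. These p-values are therefore no support for the rise. On the ICH arrays it read -7.65 and -6.27 for ICH 2 and ICH 3 and -3.90, -4.61 and -3.90 for ICH 1, ICH 4 and ICH 5, so the slide 2 ICH arrays resembled BYHWD and the slide 1 ICH arrays resembled sham. Its minus partner, humanlincRNA0922-_P1V4, was detected on all arrays and was higher as well, by 0.75 ± 0.14 SE (limma adjusted p = 0.00338).

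The other, humanlincRNA1576+_P1V4, showed the same division of the ICH arrays. It read -7.56 to -5.90 in sham and -4.79 to -4.12 in BYHWD, and was at least 2.02-fold higher (limma adjusted p = 0.00781, and a log2 difference of 0.67 with normexp). ICH 2 and ICH 3 stood at -6.10 and -6.89 and the slide 2 ICH arrays at -4.46 to -4.01. Detected on no sham array and 3 of 5 ICH arrays, humanlincRNA1576+_P1V4 too met the minimum of 5 arrays only through BYHWD. Its p-value is therefore no support for the rise. In all, 5 probes were detected on every BYHWD array and no sham array (0.277% of the 1806, against 0.0395% of all probes). The other 3, named after this count was seen, were mouselincRNA1010-_P1V4 (at least 2.0-fold), humanlincRNA1056-_P1V4 (at least 2.04-fold) and humanlincRNA0080+_P1V4 (at least 1.98-fold). Each of these 3 was detected on 3 of 5 ICH arrays.

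On the falling side, humanlincRNA1692-_P1V4 was detected on all 5 sham arrays, at -4.94 to -4.10, and on no BYHWD array, at -7.23 to -5.13. It was at least 1.48-fold lower in BYHWD (limma adjusted p = 0.0484), but with normexp background correction the log2 difference was 0.17. With detection on 2 of 5 ICH arrays, it met the minimum of 5 arrays only through sham, where it is high. The p-value is therefore no support for the fall. Its plus partner, humanlincRNA1692+_P1V4, was higher (0.57 ± 0.19 SE, adjusted p = 0.0468). humanlincRNA2077+_P1V4, detected on every array, fell from 3.61 ± 0.12 to 2.41 ± 0.35 (SD, n = 5 each; -1.20 ± 0.27 SE, limma adjusted p = 0.00905). It was lower in ICH than in sham too (-1.0 ± 0.27 SE, adjusted p = 0.0461), at 3.33 and 3.45 on the slide 1 ICH arrays and 1.75 to 2.27 on those of slide 2.

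The higher levels in BYHWD were also seen in the middle of the set, beside the probes past the test. The median level of the tested lincRNA-named probes was -3.39, -3.33, -3.36, -3.15 and -3.19 on sham 1 to 5, -3.33 and -3.22 on ICH 2 and ICH 3, -3.09, -3.02 and -3.19 on ICH 1, ICH 4 and ICH 5, and -2.89, -2.90, -2.95, -3.06 and -2.87 on BYHWD 1 to 5. All BYHWD arrays lay above all sham arrays and above every ICH array but ICH 4, which exceeded BYHWD 4. The same median over all other tested probes ran from -1.67 to -1.60 in sham, from -1.63 to -1.53 in ICH and from -1.64 to -1.56 in BYHWD, and the 3 ranges overlapped. Over the lincRNA-named probes detected on all 15 arrays, the group means of the median were -2.59 ± 0.09 (SD, n = 5) for sham, -2.51 ± 0.11 for ICH and -2.30 ± 0.06 for BYHWD. The prefixes moved together, from -3.38 to -3.01 between the sham and BYHWD means for humanlinc, from -3.15 to -2.87 for mouselinc and from -3.06 to -2.72 for MM9LINC.

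The difference varied with brightness, so the probes were also read in bands of their mean log2 signal. In BYHWD against sham, the median log2 difference of lincRNA-named probes was 0.50 under a log2 signal of 4, 0.43 from 4 to 5, 0.34 from 5 to 6 (209 probes), 0.26 from 6 to 7 (147), 0.23 from 7 to 8 (97) and -0.01 over 8 (147). For the other tested probes of the same bands it was 0.20, 0.16, 0.09, 0.04, -0.01 and -0.07. The dim probes outside the set were thus higher in BYHWD as well, and the median of the lincRNA-named probes was above that of the others in each band. The share called higher was 28.4% to 31.3% in the 5 bands up to 8, against 11.8% to 16.2% of the others, and 15.6% against 8.63% over 8. The share called lower was 0% to 2.04% in the 5 bands up to 8, against 2.07% to 6.07% of the others. Over 8 it was 10.2% against 6%, so the brightest lincRNA-named probes held a larger share of falls as well as of rises. In BYHWD against ICH the medians were 0.30, 0.25, 0.28, 0.25, 0.24 and 0.17 in the same order, against 0.05, 0.04, 0.01, -0.01, -0.03 and -0.01. The share called higher there was 7.91% to 11.6% in the 5 bands up to 8, against 3.15% to 4.09% of the others. Over 8 it was 2.72% against 2.96%, so the brightest lincRNA-named probes held no larger share of rises. In ICH against sham the medians were 0.22, 0.20, 0.11, 0.05, 0.06 and -0.11, against 0.17, 0.14, 0.09, 0.06, 0.03 and -0.02. In this last comparison the lincRNA medians lay within 0.09 of the others in every band.

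The size of these differences varied with the normalization. With quantile normalization the median log2 difference of the lincRNA-named probes fell to 0.20 in BYHWD against sham, with 209 higher and 28 lower (9.54% and 6.62% of all tested probes). It stood at 0.23 in BYHWD against ICH, with 103 higher and 6 lower (4.70% and 4.22% of all). In ICH against sham it was 0.01, with 23 higher and 22 lower (3.57% and 1.35% of all). In the authors' deposited values the medians were 0.17, 0.20 and 0.01. With normexp background correction the median was 0.38 in BYHWD against sham, with 665 higher and 24 lower (33.4% and 5.84% of all tested probes), and 0.31 in ICH against sham, with 540 higher and 47 lower (31.1% and 6.50% of all). In BYHWD against ICH it was 0.09, with 14 higher and 2 lower. Here 1.36% of the lincRNA-named probes and 1.52% of all tested probes were higher, so the share of rises did not exceed that of all tested probes. Normexp was run with an added offset of 50 units, above the median processed signal of the 1806 lincRNA-named probes, which was 14 units. The part of the offset in the normexp counts and medians was not tested. Normexp moved the median of all tested probes to 0.16, 0.18 and 0.00 in the same order. When the slide was a random block, 0 of the 1030 passed limma's test in BYHWD against sham (161 at an unadjusted p under 0.05, and 496 without the block, with 0.00581% of all tested probes higher), and the median difference was 0.27. The median signal of the MM9NEGATIVE spots was 2.06 to 2.92 units in sham, 1.86 to 2.27 in ICH and 1.94 to 2.84 in BYHWD, with overlapping ranges. Between ICH arrays of slide 2 and slide 1, which share the treatment, 205 lincRNA-named probes were higher on slide 2 and 98 lower (19.9% and 9.51%, against 11.3% and 10.7% of all tested probes), with a median difference of 0.16 against 0.08. Slide and treatment cannot be told apart in the comparisons with BYHWD.

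The probes past the test were also counted by pair. In ICH against sham, of the 288 pairs with both probes tested, 2 had both lower (humanlincRNA1166 and humanlincRNA2039), 1 had the probes going opposite ways, and 26 had a single probe past the test. The opposite pair was humanlincRNA1995, with -1.01 ± 0.27 SE for humanlincRNA1995+_P1V4 and 0.66 ± 0.16 SE for humanlincRNA1995-_P1V4 (limma adjusted p = 0.0423 and 0.0344), and in BYHWD against sham the same probes stood at -1.07 and 0.66. In BYHWD against ICH, 1 pair had both higher, mouselincRNA0463 (1.02 and 0.58 for plus and minus), and 54 had a single probe past the test. In BYHWD against sham, 22 pairs had both higher, 5 went opposite ways and 124 had a single probe past the test. These counts include probes that met the minimum of 5 arrays only through the group where they are high, whose p-values are no support. Examples are humanlincRNA0922+_P1V4, in a pair with both higher, and humanlincRNA1692-_P1V4 and humanlincRNA0080+_P1V4, in pairs going opposite ways. How many more there are was not counted. Taken singly, 28.7% of all tested plus probes and 27.6% of all tested minus probes were higher in that comparison. Whether the pair counts depart from such single rates was not tested. As a description across pairs, which share arrays and scaling, Spearman's rho between the differences of plus and minus probes was 0.07, 0.01 and 0.07 in the order in which the comparisons were described. The sign was shared by 54.5%, 63.9% and 62.2% of the pairs. These single named pairs were picked after their values were seen.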

How the data were processed

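Total RNA was labelled with Cy3 and each sample had its own array, per the labels' protocols. Spot intensity values come from the deposited scanner output, which per the file headers was read with Agilent Feature Extraction 11.0.1.1. They are corrected for background within the array and not scaled between arrays. A deposited table holds log2 values, and how the authors scaled them was not given in the sources used here. Its column medians were 6.50 to 6.54, and each column was nearest to quantile-normalized values of its own array (r of 0.959 to 0.986 across probes).

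From the processed signal, 25 to 93 spots per array that the scanner software marked as outliers were removed, each array's 75th percentile over non-control spots was subtracted on the log2 scale and spots of a probe were averaged. No spot was saturated. Of the distinct probes, 132 spike-in, custom or negative ones were not tested, nor those with a left-out value, and 51669 detected on at least 5 arrays were fitted with limma 3.58.1 (R 4.3.3) on all 15 arrays, 2-sided, adjusted over all 51669. Slides were read from scan identifiers and groups from titles. The limma step was tested on simulated data with independent noise on each array and no slide effect, so that test does not cover differences between slides. Normexp with an offset of 50 used the median signal, since the files hold no mean signal, and was added after seeing the files.

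Probes were named by a rule: in ICH against sham, the 2 largest rises and falls per prefix past the test without overlap, and in the other comparisons the 2 largest rises and falls over all prefixes. Pair partners are given for only some of them. Of the tested partners not given, humanlincRNA2077-_P1V4 and MM9LINCRNAEXON11382-_P1V4 differed in the opposite direction to the named probe without passing. The members, lists and rule were chosen with earlier results of these data known. Probe sequences were not used here.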

Additional observations from a re-analysis of the deposited data

Results flagged for a closer look

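Among 63 sets of 5 arrays checked, 2 held an array far from the other 4, where chance gives about 1 in 20. humanlincRNA0922+_P1V4 stood at -4.57 on BYHWD 4, against -4.01 to -3.82 on the other BYHWD arrays (gap over range 0.747), which does not reach the sham range. The number of lincRNA-named probes detected was 1038 on BYHWD 1, against 972 to 985 on the other BYHWD arrays (gap over range 0.803).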

How the results depend on the processing

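The counts of lincRNA-named probes past the test were 49 for ICH against sham, 92 for BYHWD against ICH and 311 for BYHWD against sham. In that order, normexp background gave 587, 16 and 689, a random slide block 2, 0 and 0, a 2-fold minimum 19, 18 and 92, and an adjusted p under 0.01 gave 1, 7 and 127. For the first comparison, normexp gave 540 higher and 47 lower and moved the median of all tested probes to 0.18. Without the ICH arrays of slide 2 the first 2 counts were 1 and 187, with the slide 2 ICH arrays alone as ICH 446 and 252, and with those of slide 1 alone 1 and 183. For ICH against sham, the slide as a fixed block gave 1, the 2 groups alone 2 and the deposited values 3. Without any filter BYHWD against sham gave 527. Single arrays left out gave 2 to 249, 32 to 125 and 226 to 341. The labels state no pairing of the samples by replicate number. None of 15 correlations between same-numbered arrays exceeded 0.1 (lowest -0.34), but since the ICH arrays are split over slides, this cannot exclude a pairing. With the replicate number as a block 19, 23 and 251 passed. Each of the 19 named results missed the main test's adjusted p threshold under at least 1 alternative. The 11 of ICH against sham missed it under 10 to 22 of 31 or 32. The 4 of BYHWD against ICH missed it under 4 to 17 of 30 or 31. The 4 of BYHWD against sham missed it under 1 of 29 or 30, except humanlincRNA1692-_P1V4 under 16. For these 19 results the main threshold was kept in every alternative. The 2-fold minimum and the adjusted p under 0.01 are among the alternatives, but could add no miss. The counts of misses are therefore too low for results that fail those stricter limits. Normexp took mouselincRNA1630+_P1V4 to 0.14, humanlincRNA0566+_P1V4 to 0.22 and humanlincRNA0922+_P1V4 to 0.83. In all, 2 changed sign, both with normexp: MM9LINCRNAEXON11109-_P1V4 in ICH against sham (0.06) and humanlincRNA1692-_P1V4 in BYHWD against sham (0.17). The cause of the other shifts was not tested. The 774 untested probes are limited by signal over background.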
